A study of Mus musculus with 16 samples.

Results

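A set of 10 genes that mark the mural cells of blood vessels was followed through demyelinated mouse spinal cord: 7 pericyte genes (Vtn, Pdgfrb, Notch3, Rgs5, Anpep, Kcnj8 and Abcc9) and 3 genes of contractile smooth muscle (Acta2, Tagln and Myh11). They were chosen by symbol among 46078 Ensembl gene IDs, and all 10 were among the 15096 genes with enough reads to be tested. RNA was sequenced from laser-microdissected lesions of C57BL/6 mice aged 8 to 12 weeks. All mice received lysolecithin, which dissolves myelin around axons, so there was no uninjured tissue among the groups. Exercise mice had a running wheel that turned, and control mice had the same wheel locked. The groups were exercise at day 10, control at day 10, exercise at day 5 and control at day 5, each with 4 libraries that keep the numbers given in the labels. The labels do not say whether each library is a separate animal, so the p-values measure the spread between libraries, part of which may be technical. Lesion RNA was scarce and was amplified before library construction, per the labels' protocols.

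Pericytes are contractile support cells that sit within the basement membrane of capillaries and share it with the endothelium; arterioles are wrapped instead by ring-shaped smooth muscle cells. Endothelial cells secrete PDGF-B, which recruits and keeps pericytes through the receptor PDGFRβ, and they present Notch ligands to NOTCH3 on the mural cell. In the central nervous system pericytes help to maintain the barrier between blood and tissue, and PDGFRβ-positive stromal cells also contribute to scar tissue after injury. Several of the 10 genes are also used by other cells: Pdgfrb is also made by fibroblasts, Anpep by myeloid cells and fibroblasts, and Acta2 and Tagln by contractile fibroblasts. In bulk tissue, fewer cells of a type cannot be told apart from less RNA per cell.

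Sequence before the start of Vtn and of Acta2 is shown because these genes had opposite courses over time: the pericyte gene Vtn rose by day 10, and the contractile gene Acta2 had lower levels then without passing the test. Starts are those of the RefSeq table on GRCm38.p6. For Vtn the 250 bases at chr11:78498870-78499119, plus strand, are given. GENCODE starts a coding transcript at the same base, but places the start of the gene 29 bases further upstream, inside the window. Capitals mark overlapping matches on both strands to TATAAA, beginning 137 and 135 bases before the start.
Vtn: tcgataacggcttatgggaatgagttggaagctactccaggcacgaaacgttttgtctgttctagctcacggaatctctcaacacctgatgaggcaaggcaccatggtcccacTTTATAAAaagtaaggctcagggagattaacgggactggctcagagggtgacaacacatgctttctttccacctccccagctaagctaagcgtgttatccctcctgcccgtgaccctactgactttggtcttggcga

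For Acta2, on the minus strand of chromosome 19, the window of the same length held 2 matches to the CArG box, the element bound by serum response factor. They begin 84 and 34 bases before the RefSeq table's start, and the full stretch between is not printed. GENCODE places the start of the gene 217 bases further upstream, so both matches lie inside its first exon, in untranslated sequence.
Acta2, first match: CCCTATATGG
Acta2, second match: CCTTGTTTGG

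Both Acta2 matches held 1 G or C among the 6 central bases, which are A or T in the exact motif. Allowing 1 such base, a match was present in 8.59% of 32851 mouse promoter windows of the same length, against 1.47% for the exact motif. TATAAA was present on either strand in 12.4% of them. Promoter windows were matched for 7 of the 10 members (Vtn, Kcnj8, Abcc9, Rgs5, Anpep, Notch3 and Acta2), and Acta2 was the only 1 of these with a CArG match. A match here is a run of letters, and binding was not measured in these data.

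Library totals ran from 9.773 to 11.09 M (mega) counts in exercise lesions at day 10 and from 10.71 to 12.7 M in control lesions at day 10. At day 5 they ran from 8.126 to 10.93 M in exercise lesions and from 11.2 to 13.93 M in control lesions. At that day the mitochondrial ribosomal RNA mt-Rnr2 took 10.9% to 12.9% of counts with exercise and 8.05% to 10.3% in controls, so that depth and this share separated the day 5 groups and cannot be told apart from exercise there. Exercise replicate 17 at day 10, which the authors' deposited day 10 comparison leaves out, stood apart from its group. A chi-square of its counts over genes against each of the other 3 exercise lesions at day 10 gave 51.0, 57.7 and 27.0 per degree of freedom, where those 3 gave 21.8 to 25.8 among themselves. The Vtn changes that include it are given with and without it. Without it, 0 genes passed for exercise against control at day 10 by edgeR's quasi-likelihood test. This was not particular to replicate 17: 0 genes also passed without control replicate 2, control replicate 3 or exercise replicate 19 of that day. Sums, ratios and ranges of exercise lesions at day 10 include it. None of 7 skeletal muscle genes had enough reads to be tested, Myh4 was at 0 in every group, and the list summed to between 0.0733 and 1.41 RPKM (counts scaled to gene length and library total) per library.

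Set per length, the members covered a wide range of levels. Over the 16 libraries Anpep, a surface aminopeptidase also called CD13, had the highest mean, 65.3 ± 21.99 RPKM (mean ± SD, n = 16, over all groups). Rgs5, a regulator of G-protein signalling, averaged 29.0 ± 5.17 RPKM, Tagln 28.5 ± 11.1 RPKM and Vtn 26.0 ± 18.8 RPKM. These pooled means hide an order that changed between groups. In exercise lesions at day 10 Vtn (25.0 ± 8.79 RPKM), Rgs5 (24.9 ± 2.81 RPKM) and Tagln (19 ± 2.83 RPKM) lay close, with Vtn overlapping both others, and Anpep was at 45.6 ± 2.36 RPKM (SD, n = 4 each, here and in the next sentences). In control lesions at day 10 Vtn (54.7 ± 8.05 RPKM) was level with Anpep (55.1 ± 1.59 RPKM), followed by Rgs5 (32.99 ± 4.13 RPKM) and Tagln (19 ± 2.63 RPKM). At day 5 the order was Anpep, Tagln, Rgs5 and Vtn: 91.5 ± 25.5, 38.6 ± 8.12, 29.7 ± 1.36 and 11.9 ± 2.50 RPKM in exercise lesions, and 68.8 ± 13.2, 37.5 ± 7.23, 28.4 ± 7.87 and 12.3 ± 2.67 RPKM in control lesions. Tagln and Rgs5 did not differ beyond their spread in either arm at day 5. Over all 16 libraries, Acta2 at 8.35 ± 5.93 RPKM and Pdgfrb at 5.61 ± 1.89 RPKM overlapped in their spread. Abcc9 at 1.59 ± 0.366 RPKM and Notch3 at 1.4 ± 0.376 RPKM were lower, and Kcnj8 at 0.584 ± 0.300 RPKM and Myh11 at 0.436 ± 0.537 RPKM were lowest. Kcnj8 had 5 to 29 counts per library and Myh11 had 3 to 162, so that small changes in either were not detectable at this depth. The defining markers of both cell types were thus present, those of smooth muscle with Myh11, the most specific of them, near the limit.

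**Figure D1:**
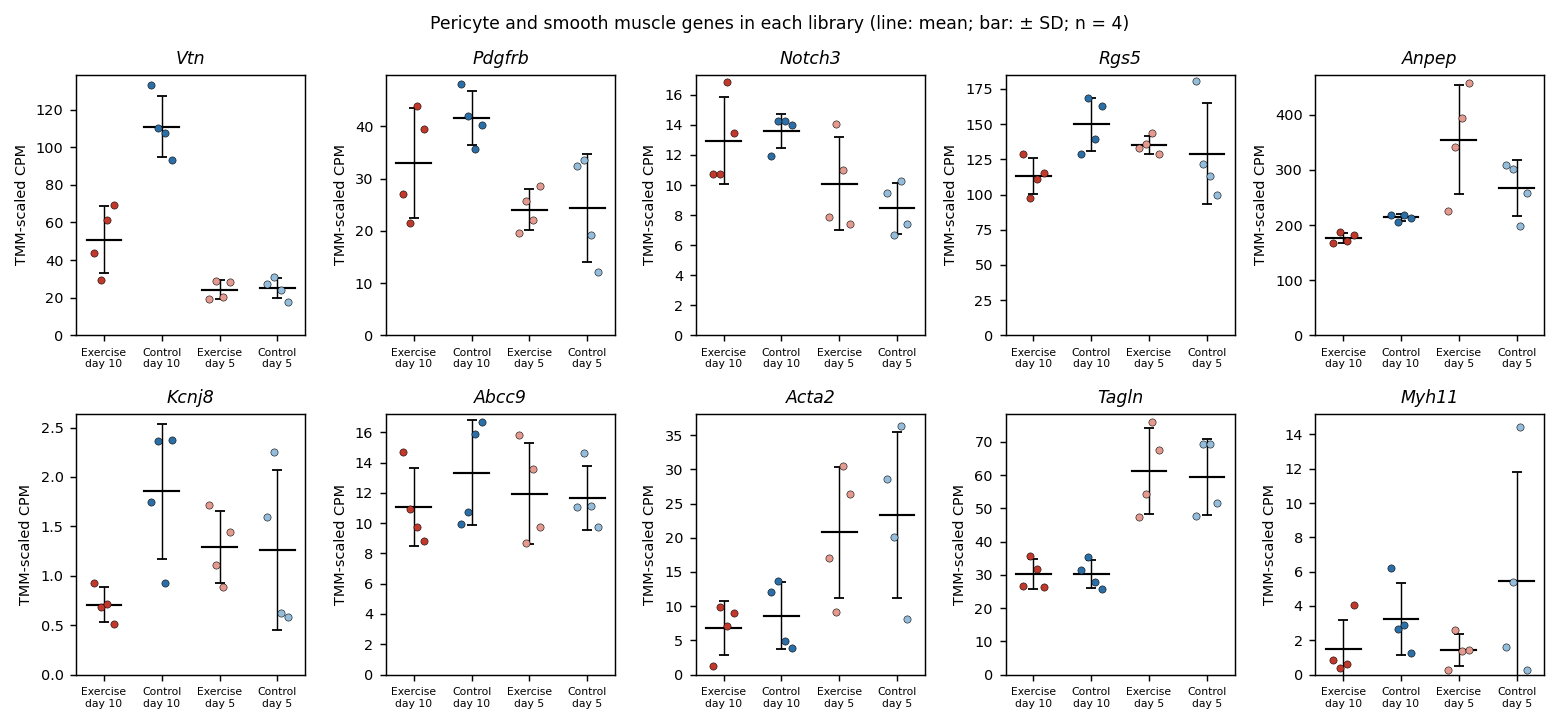
Level of each of the 10 genes in every library, in CPM (counts scaled to the TMM-adjusted library total); each point is a library, the line is the group mean and the bar ± SD over 4 libraries, and bars that reach below 0 are cut there. Vtn stands highest in control lesions at day 10 (93.4 to 133 CPM), and Tagln is lower in all 8 lesions at day 10 than in any at day 5.

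Vtn encodes vitronectin, an adhesive glycoprotein of plasma and matrix that binds αv integrins and that brain pericytes transcribe strongly. The gene is ENSMUSG00000017344, on chromosome 11 from 78499091 to 78502324 of GRCm38, plus strand. Exercise replicates 13, 17, 18 and 19 at day 10 had 43.6, 29.4, 61.3 and 69.1 CPM, and control replicates 2, 3, 4 and 5 at day 10 had 133, 110.1, 108 and 93.4 CPM. Exercise replicates 1, 2, 7 and 12 at day 5 had 19.2, 20.5, 28.1 and 29.1 CPM, and control replicates 1, 2, 5 and 6 at day 5 had 27.0, 30.7, 24.2 and 17.9 CPM. Every library of day 10 control was above every exercise library of that day, while the day 5 groups overlapped fully.

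Between day 5 and day 10 Vtn rose in both arms. In exercise lesions it averaged 50.8 ± 17.8 CPM at day 10 and 24.2 ± 5.07 CPM at day 5 (SD, n = 4 each), a 2.09-fold rise (log2 1.07, SE 0.23, 95% interval 0.59 to 1.55, edgeR adjusted p = 0.00653). In control lesions it averaged 111 ± 16.3 CPM at day 10 and 25.0 ± 5.43 CPM at day 5, a 4.45-fold rise (log2 2.15, SE 0.23, 95% interval 1.67 to 2.64, adjusted p = 4.09e-05). In neither arm did the days overlap. Without exercise replicate 17 the rise in exercise lesions was log2 1.26 with an adjusted p of 0.000573.

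Of the receptor genes, Notch3, which keeps arterial mural cells differentiated, rose with time in control lesions, by 1.61-fold (log2 0.69, SE 0.22, adjusted p = 0.0471). Notch3 lies on chromosome 17 from 32120820 to 32166852. Control lesions had 11.9, 14.3, 14.2 and 14 CPM at day 10 and 9.46, 6.66, 10.2 and 7.41 CPM at day 5, without overlap. The Notch3 call was lost when any of 7 of the 8 libraries was left out (adjusted p 0.0456 to 0.13 over the 8). Pdgfrb, which encodes the PDGF-B receptor, had 48.1, 42.0, 35.7 and 40.4 CPM in control lesions at day 10 and 32.4, 33.6, 19.2 and 12.2 CPM at day 5. These did not overlap either, and its log2 change of 0.77 (SE 0.27) gave an adjusted p of 0.0676 by edgeR. By DESeq2 the adjusted p was 0.036.

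In exercise lesions neither receptor passed. Pdgfrb had 27.1, 21.5, 43.9 and 39.6 CPM at day 10 and 19.7, 22, 28.6 and 25.8 CPM at day 5, a log2 change of 0.46 (SE 0.27, adjusted p = 0.307). Notch3 had 10.7, 10.7, 16.8 and 13.5 CPM at day 10 and 7.85, 11, 7.43 and 14.1 CPM at day 5, a log2 change of 0.36 (SE 0.22, adjusted p = 0.328). The levels of both genes overlapped between days. Whether the course over time differed between arms was tested separately and is given with the interaction.

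Anpep was the pericyte gene that fell, and did so in exercise lesions. Exercise lesions had 167, 187, 171 and 181.5 CPM at day 10 and 225, 395, 459 and 341 CPM at day 5, where the library with 225 CPM was the lowest of a wide group. The gene lies on chromosome 7 from 79821803 to 79861059, minus strand. The fall was 2.01-fold (log2 -1.004, SE 0.17, adjusted p = 0.00116). Control lesions had 218, 205, 219 and 213 CPM at day 10 and 309, 302, 198 and 258 CPM at day 5, which overlapped, and the log2 change of -0.32 (SE 0.17) gave an adjusted p of 0.231. Anpep is shared with myeloid cells, and the summed level of 10 myeloid genes was 4981 to 6752 RPKM in exercise lesions at day 10 and 7160 to 10766 RPKM at day 5. Relative to that list Anpep was 0.00693 to 0.00867 at day 10 and 0.00769 to 0.0123 at day 5 in exercise lesions, ranges that overlapped. The part of myeloid cells in the fall of Anpep was not tested.

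Rgs5 and the paired channel genes showed no passing change with time. Rgs5, on chromosome 1 from 169655501 to 169695813, had a log2 change of -0.26 in exercise lesions (SE 0.15, adjusted p = 0.3) and 0.22 in control lesions (SE 0.15, adjusted p = 0.372). Kcnj8 encodes the pore, Kir6.1, and Abcc9 the regulatory subunit, SUR2, of the vascular ATP-sensitive potassium channel. The genes lie on the minus strand of chromosome 6, from 142564837 to 142571614 for Kcnj8 and from 142587862 to 142702315 for Abcc9, with 16247 bases between them. Kcnj8 changed by log2 -0.86 (SE 0.50) in exercise lesions and 0.56 (SE 0.46) in control lesions, and Abcc9 by -0.11 (SE 0.24) in exercise lesions and 0.19 (SE 0.23) in control lesions. The other channel pair, Kcnj11 and Abcc8, had too few reads to be tested and summed to at most 0.406 RPKM in any library.

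Of the contractile genes, Tagln fell with time in both arms. It encodes transgelin, an actin-binding protein of smooth muscle, on chromosome 9 from 45929619 to 45936058. Exercise lesions had 26.7, 35.7, 31.8 and 26.3 CPM at day 10 and 47.3, 75.9, 67.5 and 54.2 CPM at day 5. Control lesions had 31.5, 35.4, 27.9 and 25.9 CPM at day 10 and 47.5, 69.2, 69.2 and 51.6 CPM at day 5. The days did not overlap in either arm, and Tagln fell 2.03-fold in exercise lesions (log2 -1.02, SE 0.17, adjusted p = 0.00111) and 1.97-fold in control lesions (log2 -0.98, SE 0.17, adjusted p = 0.00107).

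Acta2, which encodes smooth muscle α-actin, was lower at day 10 in estimate, with a wide spread. Exercise lesions had 1.21, 9.86, 7.09 and 9.03 CPM at day 10 and 17, 30.5, 26.4 and 9.21 CPM at day 5. Control lesions had 12.0, 13.6, 4.93 and 3.93 CPM at day 10 and 28.6, 20.1, 36.4 and 8.14 CPM at day 5. In each arm 1 library of day 5 lay within the day 10 range. The log2 change was -1.61 in exercise lesions (SE 0.58, adjusted p = 0.0914) and -1.43 in control lesions (SE 0.57, adjusted p = 0.114). The gene lies on chromosome 19 from 34241090 to 34255590. Acta2 counts are uncertain in part, since other actin genes are nearly identical in their coding sequence.

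Myh11, the smooth muscle myosin heavy chain, was too sparse and too uneven for a comparison to be firm. It had 0.838, 0.390, 0.621 and 4.06 CPM in exercise lesions at day 10 and 6.23, 2.64, 2.89 and 1.23 CPM in control lesions at day 10. At day 5 it had 0.271, 1.39, 1.45 and 2.58 CPM in exercise lesions and 1.59, 5.41, 14.4 and 0.291 CPM in control lesions. The control group at day 5 thus spanned 49.7-fold within itself.

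By edgeR's quasi-likelihood test, 1 of 10 members rose with time in exercise lesions (Vtn) and 2 fell (Anpep and Tagln), where 5.17% of all genes tested rose and 4.9% fell. In control lesions 2 of 10 rose (Vtn and Notch3) and 1 fell (Tagln), where 5.66% of genes rose and 6.64% fell. The members whose days did not overlap numbered 1 higher and 2 lower in exercise lesions, against 7% and 7.09% of all genes. In control lesions they numbered 3 higher and 1 lower, against 9.33% and 10.7%. At an unadjusted p under 0.05, 4 of 10 members stood out in exercise lesions, against 25.8% of genes, and 5 of 10 in control lesions, against 26.9%. Estimates were below 0 for 6 of 10 members in exercise lesions, against 49.4% of genes, and for 4 of 10 in control lesions, against 48.8%. Changes with time were thus common over all genes, of which 10.1% passed in exercise lesions and 12.3% in control lesions.

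Exercise against control at day 10 asks whether voluntary running altered the mural genes of a lesion by that day. Vtn was 2.18-fold lower in exercise lesions (log2 -1.13, SE 0.22, 95% interval -1.60 to -0.66, edgeR adjusted p = 0.048), and all 4 exercise libraries lay below all 4 controls. It was the only member to pass, 1 of 10 where 0.0861% of all genes were called lower and 0.106% higher. The call stood close to the threshold: without exercise replicate 17 the log2 change was -0.94 and the adjusted p 0.0738, and it was lost in 7 of the 8 fits that left out a library. In the authors' deposited table, which has 7 libraries, Vtn had a log2 fold change of -0.95 with an adjusted p of 0.000132.

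Rgs5 and Anpep also separated the groups without passing the test. Rgs5 had 128.7, 97.7, 111 and 115 CPM in exercise lesions and 129.1, 169, 139 and 163 CPM in control lesions, which touch to within 1 CPM at their edges (log2 -0.41, SE 0.15, adjusted p = 0.275). For Anpep the day 10 values given above were likewise lower in every exercise library (log2 -0.27, SE 0.17, adjusted p = 0.513). In all, 3 of 10 members were lower in exercise lesions without overlap, against 2.58% of all genes, and 0 were higher without overlap, against 3.3%. The authors' deposited DESeq2 table, in which 179 genes passed, gives Anpep a log2 fold change of -0.31 with an adjusted p of 0.049. It gives Rgs5 one of -0.35 with an adjusted p of 0.238.

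Kcnj8 had the largest estimated difference, on few reads. Exercise lesions had 0.931, 0.683, 0.709 and 0.507 CPM and control lesions 1.75, 2.36, 0.931 and 2.37 CPM, so that the highest exercise level met the lowest control level (log2 -1.37, SE 0.49, unadjusted p = 0.0112, adjusted p = 0.25). Its channel partner Abcc9 had 14.7, 10.9, 9.75 and 8.83 CPM in exercise lesions and 9.95, 10.7, 15.9 and 16.7 CPM in control lesions, which overlapped (log2 -0.27, SE 0.23, adjusted p = 0.67). The receptors did not pass, Pdgfrb at log2 -0.33 (SE 0.27, adjusted p = 0.629) and Notch3 at -0.07 (SE 0.22, adjusted p = 0.927). The contractile genes gave 0.00 for Tagln (95% interval -0.36 to 0.35), -0.35 for Acta2 (95% interval -1.59 to 0.89) and -1.15 for Myh11 (95% interval -3.09 to 0.79).

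The estimates of all 10 members were below 0 at day 10, with Tagln and Notch3 within 0.1 of it and changing sign when single libraries were left out. At an unadjusted p under 0.05, 3 of 10 stood out (Vtn, Kcnj8 and Rgs5), against 12.8% of all genes. The median of the members was log2 -0.34, against 0.01 over all genes, of which 47.9% were below 0. Lists of glial genes leaned the same way, with 6 of 6 oligodendrocyte genes (median log2 -0.36) and 5 of 6 astrocyte genes (-0.25) below 0. Of neuronal genes 3 of 6 were below 0, and 8 of 10 myeloid genes were above 0. Of 15 endothelial genes 1 passed, Slco1a4, an organic anion transporter of the blood-brain barrier, which fell (log2 -0.86, SE 0.16, adjusted p = 0.0401). That call was lost without exercise replicate 17, and also without control replicate 2 or 3 or exercise replicate 19. Estimates were below 0 for 12 of the 15, with a median of log2 -0.74, and above 0 for Flt1 (0.59), Slc2a1 (0.18) and Vwf (0.042), which are named after their values were seen. The summed endothelial level was 72.6 to 86.3 RPKM in exercise lesions and 96.9 to 104 RPKM in control lesions. The share of vessel content in the member differences was not tested.

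**Figure D2:**
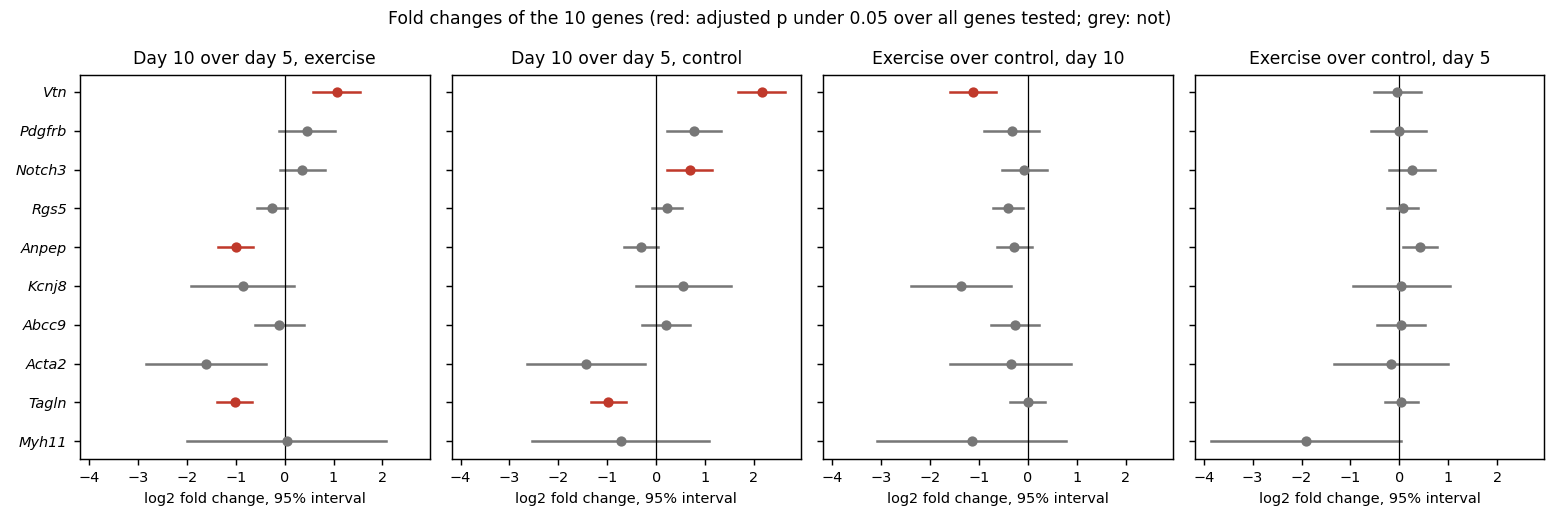
Fitted log2 fold change of each member in the comparisons of exercise with control and of day 10 with day 5, with 95% intervals. Points in red passed an adjusted p of 0.05, and points in grey did not. Vtn passed in 3 of the 4 comparisons (2.15, 1.07 and -1.13), and no member passed for exercise against control at day 5.

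At day 5 no member passed for exercise against control by edgeR, where 0% of all genes passed. At an unadjusted p under 0.05, 1 of 10 members (Anpep) and 10% of all genes stood out, and DESeq2 called 0 members and 79 genes. Both groups overlapped for all 10 members, where 3.33% of genes were higher and 3.97% lower in exercise lesions without overlap. Anpep averaged 355 ± 99.0 CPM in exercise lesions and 267 ± 51.1 CPM in control lesions (SD, n = 4 each), with overlap (log2 0.41, SE 0.17, unadjusted p = 0.0228, adjusted p = 0.435). Vtn was within the spread of the libraries, 24.2 ± 5.07 CPM with exercise and 25.0 ± 5.43 CPM in controls (log2 -0.04, 95% interval -0.52 to 0.44). Rgs5 had 133, 143, 129 and 136 CPM in exercise lesions and 181, 122, 113 and 99.9 CPM in control lesions, with a log2 difference of 0.07 (95% interval -0.24 to 0.38).

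The sparse channel genes overlapped at day 5 as well. Kcnj8 had 1.72, 0.887, 1.45 and 1.1 CPM in exercise lesions and 1.59, 2.25, 0.624 and 0.581 CPM in control lesions. Abcc9 had 15.8, 13.6, 9.74 and 8.66 CPM in exercise lesions and 11.1, 14.7, 11.1 and 9.74 CPM in control lesions. Their log2 differences were 0.04 (SE 0.47) and 0.03 (SE 0.23), and those of Pdgfrb, Notch3, Tagln and Acta2 ran from -0.17 to 0.26. Myh11 had the widest, at -1.92 (95% interval -3.86 to 0.03, adjusted p = 0.501).

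The interaction asks whether the difference between exercise and control lesions at day 10 departed from that at day 5. No member passed by edgeR, where 0% of all genes did. At an unadjusted p under 0.05, 3 of 10 members and 9.11% of all genes stood out, and DESeq2 called 0 members and 13 genes. Vtn had an interaction of log2 -1.09 (SE 0.32, 95% interval -1.76 to -0.41, unadjusted p = 0.00323, adjusted p = 0.447), so its smaller rise in exercise lesions did not pass over all genes. Without exercise replicate 17 the Vtn interaction was log2 -0.89 with an adjusted p of 0.619. Anpep followed at -0.69 (SE 0.23, adjusted p = 0.504) and Rgs5 at -0.47 (SE 0.21, adjusted p = 0.524). Kcnj8 was at -1.42 (SE 0.68, adjusted p = 0.547). The interaction was below 0 for 9 of the 10 members, all 7 pericyte genes among them, against 48.4% of all genes. This lean was not particular to the members. In lists of marker genes it was below 0 for 12 of 15 endothelial, 9 of 11 fibroblast and meningeal and 5 of 6 neuronal genes. The same held for 5 of 6 astrocyte and 6 of 6 oligodendrocyte genes, but for only 3 of 10 myeloid genes.

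Ratios within a library show how far Vtn moved with Rgs5, with the endothelial list and with Pdgfrb, which fibroblasts also make. Vtn to Pdgfrb, as a ratio of RPKM, was 3.69 to 4.71 in exercise lesions and 6.25 to 8.14 in control lesions at day 10, without overlap. At day 5 it was 2.51 to 3.05 in exercise lesions and 2.25 to 3.95 in control lesions. Vtn to the summed endothelial list was 0.168 to 0.469 in exercise lesions and 0.464 to 0.674 in control lesions at day 10, ranges that overlapped at their edges. Vtn to Rgs5 was 0.673 to 1.34 in exercise lesions and 1.28 to 2.31 in control lesions at day 10, which also overlapped. The pericyte genes other than Vtn and Anpep, summed and set against the endothelial list, were 0.330 to 0.507 in exercise lesions and 0.398 to 0.506 in control lesions at day 10, and overlapped. Against Pdgfrb, then, Vtn separated the arms at day 10, but against Rgs5 or the endothelial list it did not. Relative to the endothelial list, the pericyte sum without Vtn and Anpep did not separate them either.

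**Figure D3:**
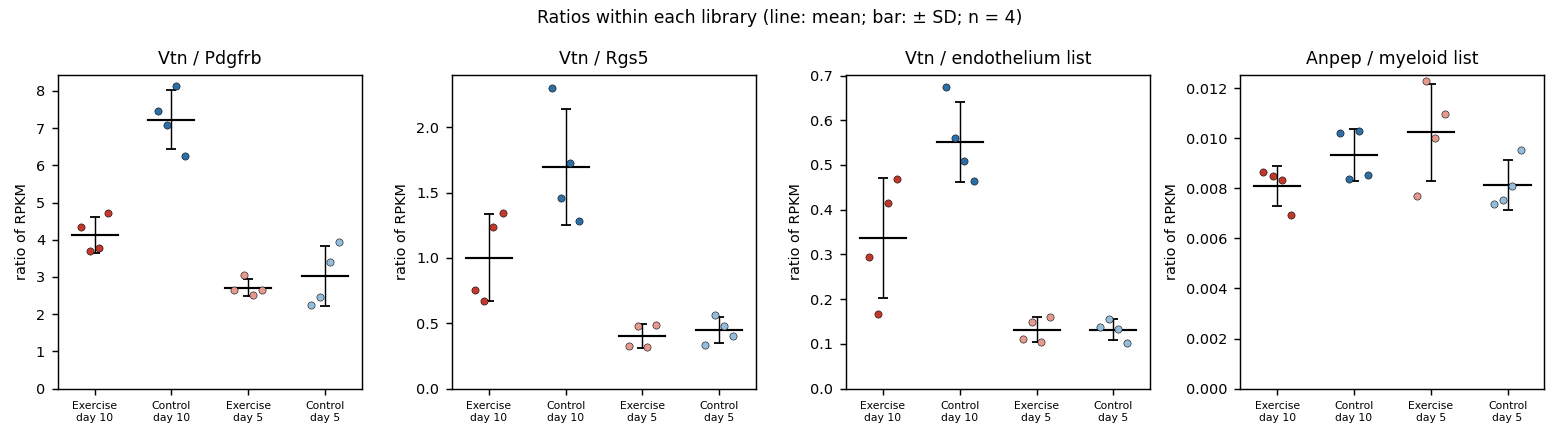
Ratios of RPKM within each library for Vtn over Pdgfrb, Vtn over Rgs5, Vtn over 15 summed endothelial genes and Anpep over 10 summed myeloid genes; points are libraries, lines means and bars ± SD over 4. Vtn over Pdgfrb separates the day 10 groups (3.69 to 4.71 with exercise, 6.25 to 8.14 in controls).

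Other mural markers were read from a list of 20 genes, of which Higd1b had too few reads to be tested. None of the 19 passed at day 10 for exercise against control by edgeR, with 6 at an unadjusted p under 0.05, against 12.8% of all genes. Of the 19, 16 had lower estimates in exercise lesions, with a median of log2 -0.46. With time in control lesions Mcam, the adhesion molecule CD146 of vessel walls, rose by log2 1.09 (SE 0.19, adjusted p = 0.00122), and Angpt1, the mural ligand of the endothelial receptor TIE2, by 0.82 (SE 0.26, adjusted p = 0.0498), 2 of 19 against 5.66% of all genes. With time in exercise lesions Rgs4, a relative of Rgs5, fell by 0.82 (SE 0.18, adjusted p = 0.0062) and Ifitm1 by 0.85 (SE 0.26, adjusted p = 0.0474), 2 of 19 against 4.9%. The median change of the list with time was 0.17 in exercise lesions and 0.18 in control lesions.

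The genes that build or drive the contractile apparatus were read from 15, of which Myocd and Lmod1 were too sparse to be tested. None of the 13 passed at day 10 for exercise against control by edgeR, with 1 at an unadjusted p under 0.05 against 12.8% of all genes, and 12 of 13 had lower estimates in exercise lesions, with a median of log2 -0.29. With time Tpm1, a tropomyosin, fell by 0.70 in exercise lesions (SE 0.21, adjusted p = 0.0429), and Itga8, an integrin subunit of contractile cells, rose by 2.09 in control lesions (SE 0.58, adjusted p = 0.0271), each 1 of 13 where 4.9% of all genes fell and 5.66% rose. The list's median change with time was -0.39 in exercise lesions and -0.22 in control lesions.

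Genes of PDGF and Notch signalling gave 13 tested of 14, Dll4 being too sparse. Their median difference at day 10 was log2 0.01, with none passing by edgeR and 3 at an unadjusted p under 0.05, against 12.8% of all genes. Pdgfb, the endothelial ligand of the Pdgfrb product, was at log2 -0.08 (SE 0.13) for exercise against control at day 10. With time Hes1, a Notch target gene, rose by 0.91 in exercise lesions (SE 0.22, adjusted p = 0.0126), and Notch2, a related receptor, rose by 0.61 in control lesions (SE 0.15, adjusted p = 0.0132), each 1 of 13 where 5.17% and 5.66% of all genes rose in those arms.

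A list of 6 receptor genes was drawn up around vitronectin, the Vtn product. It also holds Itga5, whose α5 subunit is not an established part of a vitronectin receptor. With time in exercise lesions Itgav and Itga5, subunits of the αv and α5 integrins, fell by 0.39 (SE 0.11, adjusted p = 0.0255) and 0.51 (SE 0.15, adjusted p = 0.0381), and Itgb5 rose by 0.60 (SE 0.15, adjusted p = 0.0137), where 4.9% of all genes fell and 5.17% rose. In control lesions 4 of 6 fell, where 6.64% of all genes did: Itgav by 0.57 (adjusted p = 0.00192), Itgb1 by 0.49 (adjusted p = 0.0275), Itga5 by 0.56 (adjusted p = 0.0212) and Plaur, the urokinase receptor, by 0.69 (adjusted p = 0.0378). At day 10 none of the 6 passed for exercise against control by edgeR, with 1 at an unadjusted p under 0.05 against 12.8% of all genes, and all 6 estimates were above 0 with a median of 0.21.

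Summed levels of marker lists place the members among the cells of the lesion. The 7 pericyte members summed to 91.3 to 116 RPKM in exercise lesions and 149 to 162 RPKM in control lesions at day 10, and to 104 to 168 RPKM with exercise and 94.4 to 142 RPKM in controls at day 5. The smooth muscle members summed to 17.7 to 28.1 RPKM with exercise and 18.7 to 30.3 RPKM in controls at day 10, and to 39.4 to 65.2 RPKM with exercise and 37.2 to 66.2 RPKM in controls at day 5. The pericyte sum thus separated the arms at day 10, and the smooth muscle sum separated the days. Without Vtn and Anpep the 5 remaining pericyte genes summed to 28.5 to 37.0 RPKM with exercise and 40.8 to 49.0 RPKM in controls at day 10, which did not overlap either, and to 36.4 to 39.1 RPKM with exercise and 26.7 to 49.1 RPKM in controls at day 5, which did. At day 10 these sums averaged 34.3 RPKM with exercise and 44.9 RPKM in controls, of which Rgs5 alone made 24.9 and 32.99 RPKM. Pdgfrb, Notch3, Abcc9 and Kcnj8 each overlapped between arms at day 10. The full pericyte sum was mostly Anpep, Vtn and Rgs5, the members that separated the arms singly. A list of 12 fibroblast and meningeal genes summed to 260.1 to 716 RPKM with exercise and 678 to 924 RPKM in controls at day 10, and to 237 to 426 RPKM with exercise and 114 to 497 RPKM in controls at day 5. In this list Igf2, a growth factor, fell at day 10 with exercise (190.3 ± 125 CPM in exercise lesions and 1564 ± 274 CPM in control lesions, SD, n = 4 each; log2 -3.04, SE 0.58, adjusted p = 0.048). Of its 11 tested genes 5 had estimates above 0, the collagen genes Col1a1, Col1a2, Col3a1 and Col6a1 and the matrix gene Postn, from 0.0087 to 0.70, named after their values were seen. The sum thus does not describe every gene of the list. The Igf2 call was lost without exercise replicate 17, and also without control replicate 2 or 3 or exercise replicate 19 of day 10.

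Some marker genes of the other cell types passed as well. Itgam, an integrin subunit of myeloid cells, rose with exercise at day 10 (log2 1.02, SE 0.20, adjusted p = 0.0424). That call was likewise lost without exercise replicate 17, control replicate 2 or 3, or exercise replicate 19 of day 10. With time in exercise lesions the endothelial genes Pecam1 (log2 -1.02), Tek (-1.22), Emcn (-1.22) and Esam (-0.74) fell, 4 of 15 where 4.9% of all genes fell, while Slco1a4 rose by 0.68 in control lesions. Postn rose by 2.05 in exercise lesions, and Igf2 by 3.64 and Slc6a13 by 2.20 in control lesions. Of the myeloid genes, Csf1r, Ptprc and Aif1 rose and Cd68 and Lyz2 fell in exercise lesions, and Csf1r rose and Cd68 and Adgre1 fell in control lesions. Among glial genes Aqp4, Slc1a3, Mog and Cnp rose in both arms, and Slc1a2, Mbp and Mobp rose in control lesions. The neuronal gene Stmn2 fell in both arms. These adjusted p-values, from edgeR, ran from 5.23e-05 to 0.0456, and the part of these cells in the member values was not tested.

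**Figure D4:**
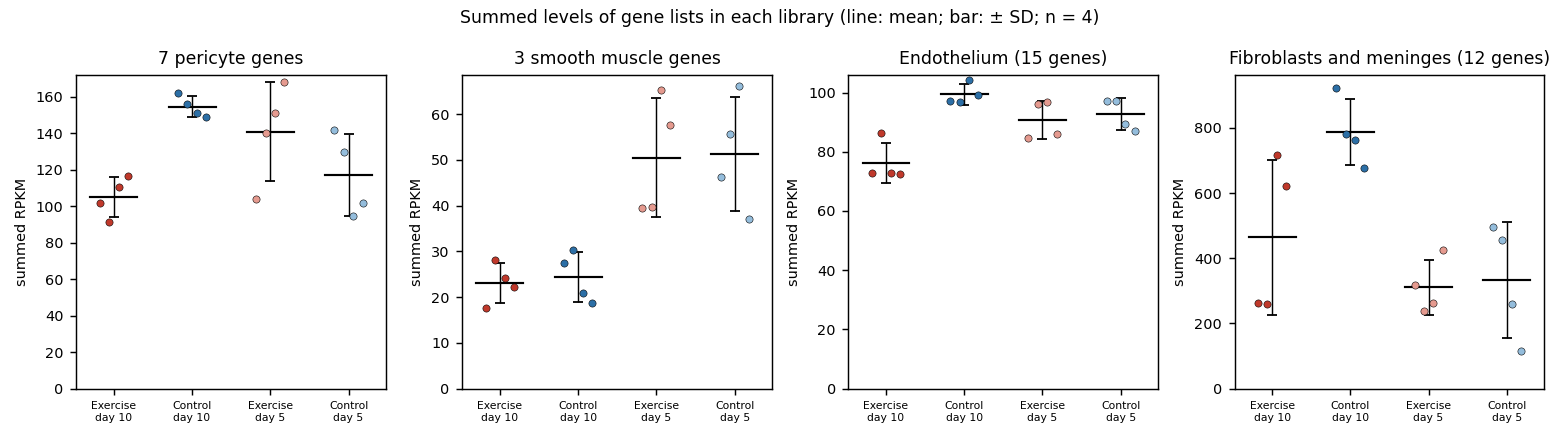
Summed RPKM per library of the 7 pericyte members, the 3 smooth muscle members, 15 endothelial genes and 12 fibroblast and meningeal genes; points are libraries, lines means and bars ± SD over 4. At day 10 the pericyte sum was 91.3 to 116 RPKM with exercise and 149 to 162 RPKM in controls, and the endothelial sum 72.6 to 86.3 RPKM with exercise and 96.9 to 104 RPKM in controls.

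The exercise libraries at day 10 also split in their fibroblast content, with 2 libraries, replicates 13 and 17, at 264 and 260.1 RPKM and the others at 716 and 621 RPKM. Pdgfrb had 27.1 and 21.5 CPM in replicates 13 and 17 and 43.9 and 39.6 CPM in replicates 18 and 19, the order of the fibroblast sums. Vtn was also lower in replicates 13 and 17, at 43.6 and 29.4 CPM, than in 18 and 19, at 61.3 and 69.1 CPM, but its highest library was 19 and not 18. The part of fibroblasts in these values was not tested. Within groups, Vtn and Pdgfrb were the member pair most alike, with a Pearson r of 0.86 over the 16 libraries after group means were removed. With the other pericyte genes Vtn had a lower r: 0.32 for Notch3, 0.26 for Anpep, 0.23 for Rgs5, 0.16 for Kcnj8 and -0.41 for Abcc9. Over all 45 member pairs the r with group means removed ran from -0.41 to 0.86 with a median of 0.16, so the 10 genes did not vary as a block.

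Among the other genes tested, those whose log2 CPM followed a member most closely over the 16 libraries were ranked by Pearson r, as a description with no test. Vtn was nearest to Serping1, the C1 inhibitor of complement, with r = 0.96 and 0.92 with group means removed, and then to Cpxm1 (0.95 and 0.79) and Cpq (0.94 and 0.55). Pdgfrb was nearest to the secreted or matrix genes Sfrp4, Fbln1 and Dcn, with r of 0.96, 0.96 and 0.95. Anpep was nearest to Fabp5 (0.92), Vat1 (0.91) and Cfp (0.90), the last encoding properdin of complement. Tagln was nearest to Atp5b (0.93), Mrc1 (0.93) and Bub3 (0.92), and Acta2 to S1pr2 (0.91), Rbms1 (0.90) and Anxa5 (0.88). Rgs5 was nearest to Gm45837 and then Angpt2, both at 0.80. Angpt2 encodes an endothelial ligand of TIE2. Kcnj8 (0.83), Abcc9 (0.93), Notch3 (0.89) and Myh11 (0.79) had their highest r with Ikzf5, Tex11, D5Ertd579e and Sfn, on low counts for Kcnj8 and Myh11.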

How the data were processed

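The authors deposited raw counts per Ensembl gene for 16 libraries; the submitters' processing notes name FastQC 0.11.4, TopHat2 2.0.10, Bowtie 1.1.2, featureCounts 1.5.0-p1 and the build GRCm38, and counting was strand-specific, per the file headers. The deposited comparison tables hold log2 fold changes and adjusted p-values, with DESeq2 1.12.4 named in the processing notes. Protocol details are from the labels.

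Counts were tested with edgeR 4.0.16 (quasi-likelihood, TMM) in R 4.3.3, over all 16 libraries with 1 mean per group. Genes passed a minimum count of 10 and a total of 15, and p-values were adjusted by Benjamini-Hochberg over 15096 genes, with a threshold of 0.05. CPM were TMM-scaled, and RPKM used the deposited gene length. The procedure was tested on simulated data. Symbols and coordinates came from GENCODE M21, which named 45143 of 46078 IDs. The lists and all 10 members were chosen with earlier results of these data known. All members were named, with list genes that passed (at most the 6 with smallest p per list and comparison) and the 3 nearest genes by r. Alternatives were DESeq2 1.42.0, its size factors, no low-count filter, only the groups compared, a replicate block within same-numbered libraries and leaving out each library. A list gene is not reported here.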

Additional observations from a re-analysis of the deposited data

Results flagged for a closer look

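Over 40 groups of 4 libraries (10 members in 4 groups), 2 held a library far from the other 3, where chance gives about 1 in 20. Myh11 was 4.06 CPM in exercise replicate 19 at day 10, against 0.390 to 0.838 CPM in the other exercise libraries of that day. Notch3 was 11.9 CPM in control replicate 2 at day 10, against 14 to 14.3 CPM in the other control libraries of that day.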

How the results depend on the processing

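For exercise against control at day 10, the single member call (Vtn) became 0 without the low-count filter (adjusted p 0.0532) and 0 with only the groups compared (0.118), and ran from 0 to 1 when libraries were left out, where Vtn stayed between log2 -1.31 and -0.94 (adjusted p 0.0331 to 0.135); with DESeq2 it was 0.00076. The count over all genes was 29, but 218 by DESeq2, 0 with only the groups compared and 0 to 133 without single libraries. At day 5 it was 0, but 79 by DESeq2 and 0 to 1 without single libraries. With time in control lesions it was 1858, 2376 by DESeq2 and 1301 to 1594 without single libraries. Members numbered 2 to 4 without single libraries and 4 by DESeq2, where Pdgfrb passed (0.036). By edgeR Pdgfrb passed without control day 5 replicate 1 (0.0493) or 2 (0.0413), and Rgs5 without replicate 1 (0.0347). With time in exercise lesions it was 1520, 856 with only the groups compared, and 975 (without day 5 replicate 7) to 1839 without single libraries; all 3 member calls held in every setting. The interaction count was 0, 13 by DESeq2 and 0 to 1 without single libraries; members stayed at 0.

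A replicate block was fitted only to same-numbered libraries: replicates 2 and 5 of the control groups, and 1 and 2 of the day 5 groups. The other libraries of those groups were left out, so an effect of the block cannot be told apart from that of fewer libraries. In that fit 333 genes and 2 members (Vtn and Tagln, not Notch3 at 0.283) passed with time in control lesions. At day 5 Kcnj8, Rgs5 and Anpep changed sign (log2 -0.55, -0.10 and -0.029). Deviations of same-numbered libraries correlated between -0.029 and 0.069. No sign of pairing by number was seen, but these few pairs, without others to compare, cannot exclude it.

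Leaving out single libraries changed the sign of members that did not pass: at day 10 Notch3 (-0.23 to 0.010) and Tagln (-0.091 to 0.076); at day 5 Vtn (-0.17 to 0.075), Kcnj8 (-0.20 to 0.47), Abcc9 (-0.13 to 0.16), Pdgfrb (-0.24 to 0.18), Rgs5 (-0.033 to 0.28), Acta2 (-0.45 to 0.13) and Tagln (-0.074 to 0.15); with time Myh11 in control (-1.25 to 0.42) and exercise lesions (-1.19 to 0.51) and Abcc9 in exercise lesions (-0.29 to 0.055); in the interaction Acta2 (-0.47 to 0.16), Tagln (-0.15 to 0.067) and Myh11 (-0.47 to 1.29). The cause was not tested. Kcnj8 and Myh11, at 3 to 162 counts per library, are limited by depth.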
